A study of Mus musculus with 12 samples.

Results

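The intestinal lineage transcription factors described here are 10 genes: the homeobox genes Cdx1, Cdx2 and Isx, the zinc-finger genes Gata4, Gata5 and Gata6, the nuclear receptor genes Hnf4a and Hnf4g, and the leucine-zipper genes Creb3l3 and Maf. They were taken by name, as the genes of a deposited count table whose Ensembl identifiers match these symbols, and all 10 of 10 were found among 43432 genes and passed the filter on low counts. The table covers 12 RNA-seq libraries of epithelial cells from Flare25 mice, in which red fluorescence reports transcription of the cytokine gene Il25, a gene that tuft cells use in gut epithelium. Live single EpCAM+ cells were sorted from gallbladder (GB) and proximal small intestine (SI) into IL-25+ and IL-25- cells, so that the groups are GB-pos, GB-neg, SI-pos and SI-neg with 3 libraries each. The IL-25- cells are all other EpCAM+ cells of the tissue and so a mixture of epithelial types. All 4 groups carry the reporter and are described in their protocol field as being at homeostasis. The labels of the 6 gallbladder libraries also list AF647-coupled HDM given 1 day before collection, and those of the small intestine libraries do not, so tissue and this label cannot be told apart in any comparison between tissues. Age, sex and strain background beyond the reporter are not given in the sources used here, and nothing in them tells if the replicates of a group are separate mice, so p-values measure only the spread between these libraries, which may be technical.

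These factors form the network that gives the gut lining its identity. CDX2 installs the intestinal programme in the posterior endoderm, and CDX1 is its close relative. GATA4 sets the character of the proximal small intestine, GATA6 acts beside it, and HNF4A with HNF4G maintains the absorptive enterocyte and its brush border and lipid genes. ISX is switched on by retinoic acid and lowers vitamin A uptake, CREB3L3 is a membrane-bound factor of liver and gut that drives lipid-handling genes, and MAF takes part in the programme of villus enterocytes in the mouse. The gallbladder arises from neighbouring endoderm and is not part of the intestine.

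The libraries held between 23703449 and 64736650 counts, and the share of mitochondrially encoded genes, a sign of RNA quality, moved with the gates: it was 7.13 to 8.83% in GB-pos, 11.2 to 25% in GB-neg, 12.1 to 17.2% in SI-pos and 26.6 to 34.9% in SI-neg libraries. With those genes left out of the counts, as many factors were called in each of the 5 comparisons as with them. Leaving them out cannot show whether RNA quality acted on the levels of other genes, which was not tested. In units of CPM (counts scaled to library size), Il25 stood at 6.39 to 12 CPM in GB-pos, 0 to 0.674 CPM in GB-neg, 6.38 to 18.2 CPM in SI-pos and 0 to 0.0508 CPM in SI-neg libraries. A tuft cell list of 20 genes summed to 35802 to 39647 CPM in GB-pos, 5592 to 8811 CPM in GB-neg, 61303 to 75663 CPM in SI-pos and 543 to 903 CPM in SI-neg libraries. Most of the GB-neg sum was Cd24a, which averaged 4834 ± 1992 CPM in GB-pos and 6903 ± 1728 CPM in GB-neg, and the other 19 genes summed to 30466 to 33602 CPM in GB-pos and 59.9 to 265 CPM in GB-neg libraries, a split made after these values were seen. A list of 24 enterocyte genes summed to 1068 to 1235 CPM in GB-pos, 1007 to 2321 CPM in GB-neg, 9428 to 11724 CPM in SI-pos and 23046 to 36839 CPM in SI-neg libraries, with none of the 24 at 0 in a whole group. GB-neg 1 stood apart: 23 enterocyte genes had a median of 5.18% of their SI-neg mean there, against 0.0459 to 0.258% in the other gallbladder libraries. Over 12 gallbladder genes, the lowest share of the GB-neg mean was 1.25% in SI-neg 3, against 0.131% in SI-neg 1 and 0.109% in SI-neg 2. The median share of these genes went the other way, with 10.8% in SI-neg 3, against 13.7% in SI-neg 1 and 24.1% in SI-neg 2. Results that rest on GB-neg 1 are given with and without it.

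Levels below are CPM scaled by TMM library sizes, as mean ± SD over n = 3 libraries, and differences are log2 fold changes ± SE. Tests are edgeR quasi-likelihood tests over all 12 libraries with Benjamini-Hochberg adjustment across 16636 genes, and a gene is said to have risen or fallen where the adjusted p was under 0.05. A bulk level cannot tell fewer expressing cells from less RNA per cell.

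**Figure D1:**
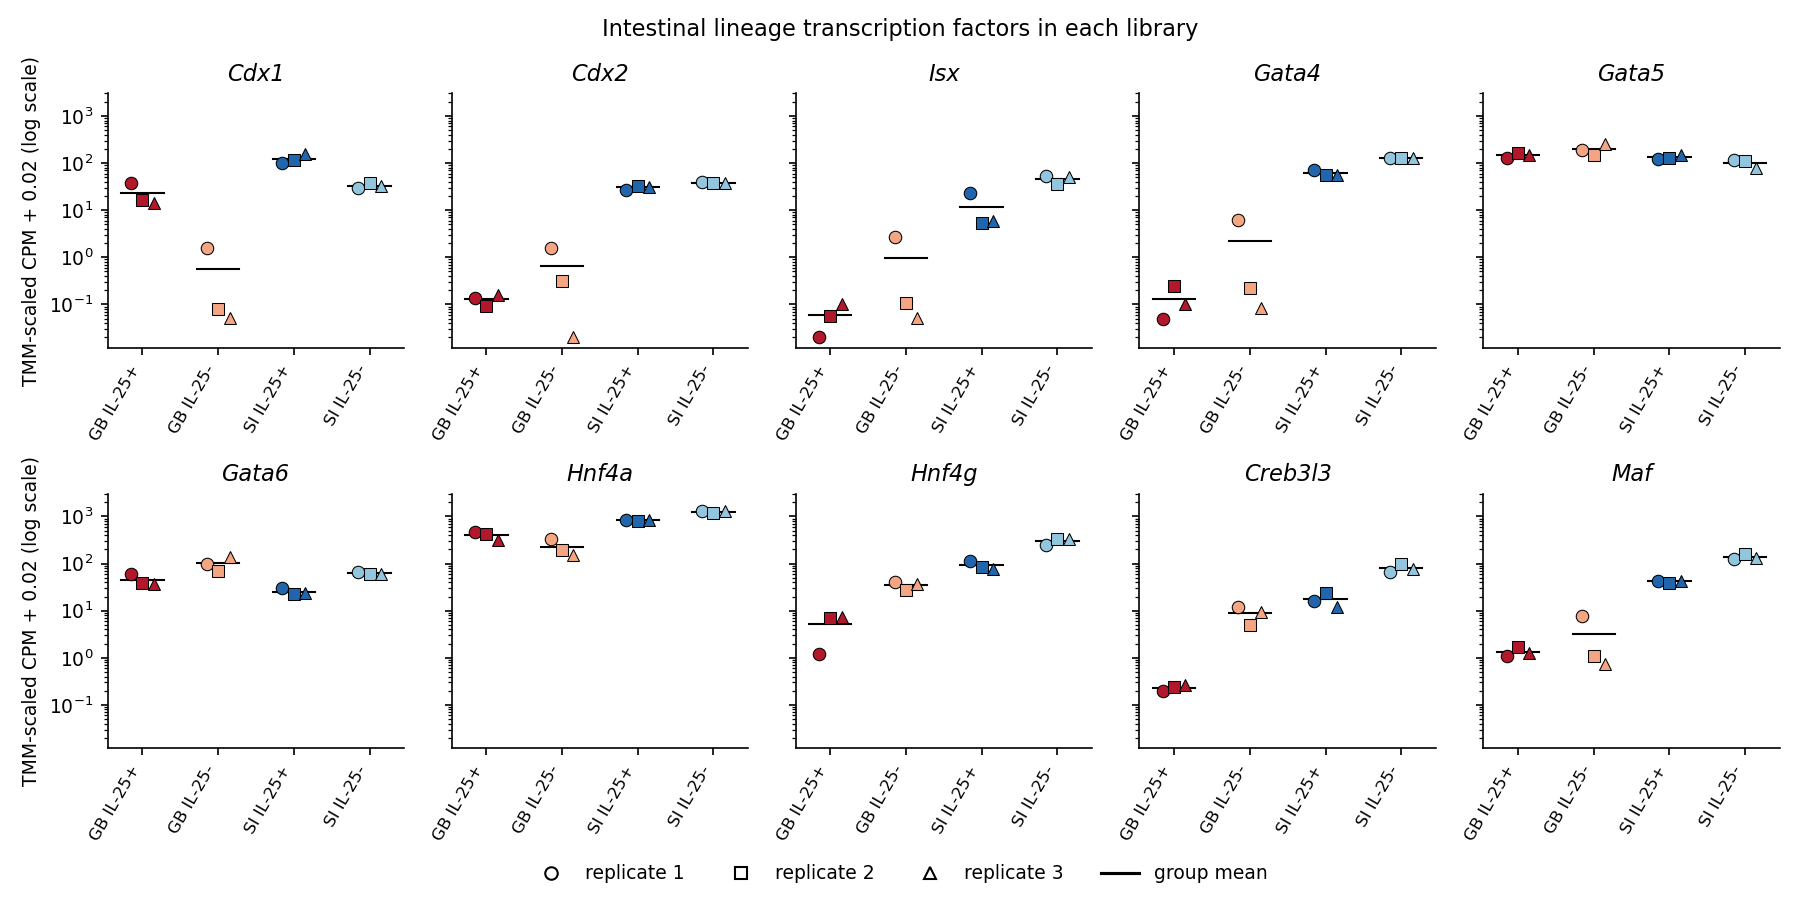
Level of each factor in each library. The y axis is TMM-scaled CPM plus 0.02 on a log scale, each symbol is 1 library with its shape giving the replicate number, and the bar is the group mean. Cdx2, Isx and Gata4 sit at or under 0.295 CPM in all gallbladder libraries but GB-neg 1, whereas Gata5 sits between 80.4 and 252 CPM in every library.

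Cdx1 was the 1 factor that was higher in IL-25+ cells of both tissues with groups that did not overlap, and in the gallbladder it was present in IL-25+ cells and close to absent from IL-25- cells. Cdx1 (ENSMUSG00000024619, chromosome 18, 61018862 to 61036199, minus strand, GRCm38) was measured at 38.5, 16.3 and 14.1 CPM in GB-pos 1 to 3, against 1.54, 0.0591 and 0.0325 CPM in GB-neg 1 to 3. In the small intestine it stood at 100, 115 and 153 CPM in SI-pos 1 to 3, against 30.1, 37.2 and 32.5 CPM in SI-neg 1 to 3. Every IL-25+ library thus lay above every IL-25- library of its own tissue, and the gallbladder IL-25+ libraries lay on both sides of the range of the small intestine IL-25- ones. GB-pos held 2288 Cdx1 counts in all, while GB-neg 2 and GB-neg 3 held 3 counts together, a ratio of 500 after scaling with a 95% counting interval of 171 to 2429. The gallbladder rise was 5.23 ± 0.99 (adjusted p = 0.00286), and 8.81 ± 0.68 without GB-neg 1 (adjusted p = 1.4e-06, range over the alternatives 4.17e-08 to 0.0149). The small intestine difference was 1.88 ± 0.84 and missed the threshold with all libraries (adjusted p = 0.124). Without GB-neg 1 the same 1.88 carried an SE of 0.36 and an adjusted p of 0.00167 (range over the alternatives 5.72e-05 to 0.268).

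Cdx2, the paralog that defines intestinal identity, did not follow Cdx1. Cdx2 (ENSMUSG00000029646, chromosome 5, 147300805 to 147307270, minus strand) was measured at 26.7, 33.3 and 31.5 CPM in SI-pos 1 to 3, against 39.2, 37.6 and 37.7 CPM in SI-neg 1 to 3. The SI-pos libraries were all lower, but the difference of -0.32 ± 0.75 did not pass the test (adjusted p = 0.79). In the gallbladder Cdx2 gave 4, 2 and 5 reads in GB-pos 1 to 3, against 111, 10 and 0 reads in GB-neg 1 to 3. The groups overlapped, and the difference was -2.53 ± 0.97 with all libraries (adjusted p = 0.0705) and -0.46 ± 0.81 without GB-neg 1 (adjusted p = 0.741), and the range over the alternatives was 0.00294 to 0.76. The floor of 3 counts that a count of 0 allows was 0.0974 CPM in GB-neg 3, and such floors cover counting error only.

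Per kilobase of exon, Cdx1 exceeded Cdx2 by ratios of 428, 284 and 135 in GB-pos 1 to 3, against 1.28 in GB-neg 1 and 0.258 in GB-neg 2, whose interval ran from 0.0275 to 1.21. The ratio was 4.85, 4.46 and 6.29 in SI-pos 1 to 3, against 0.993, 1.28 and 1.11 in SI-neg 1 to 3. The CDX transcripts of the gallbladder IL-25+ cells were thus almost entirely Cdx1, those of the small intestine IL-25+ cells mostly Cdx1, and those of the small intestine IL-25- cells near equal parts of both.

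**Figure D2:**
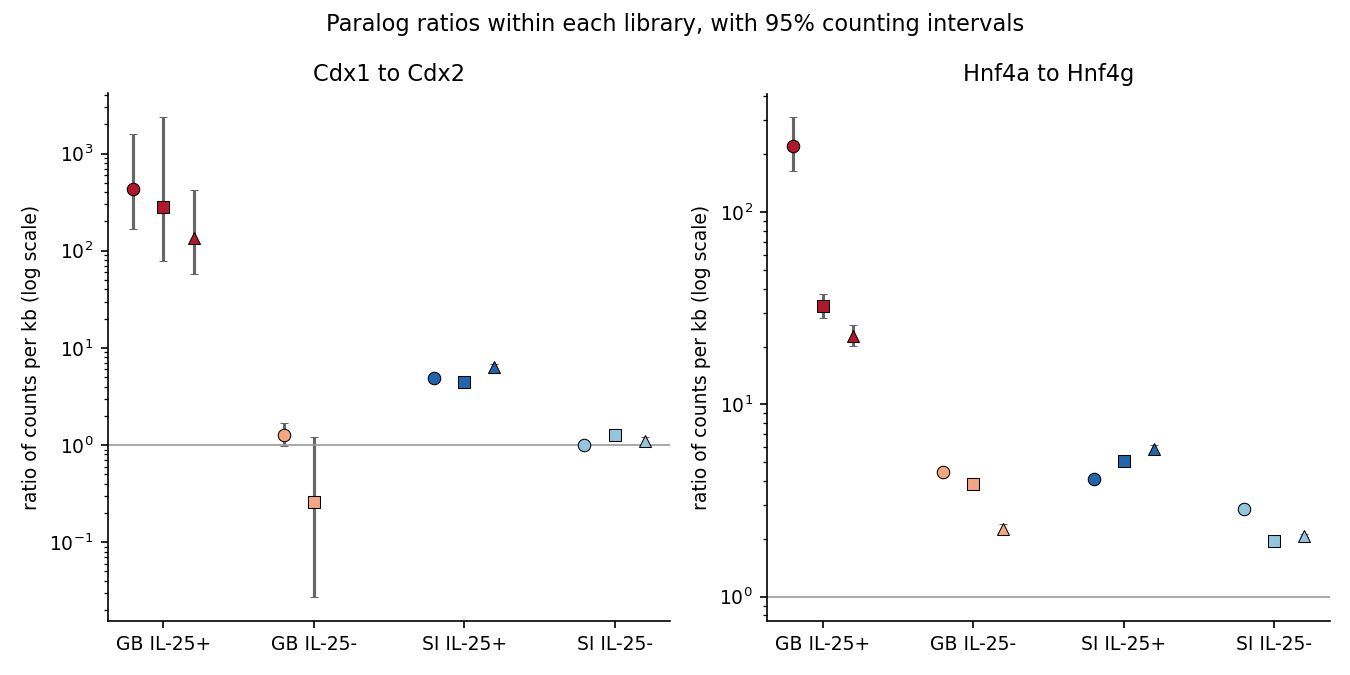
Ratio of Cdx1 to Cdx2 and of Hnf4a to Hnf4g in each library. The y axis is the ratio of counts per kilobase on a log scale with 95% counting intervals, the grey line marks equal levels, and GB-neg 3 has no Cdx1 to Cdx2 ratio because Cdx2 was at 0. The 3 GB-pos libraries lie above all others in both panels, from 135 for Cdx1 to Cdx2 and from 22.8 for Hnf4a to Hnf4g.

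Isx was a transcript of the small intestine and mainly of its IL-25- cells. Isx (ENSMUSG00000031621, chromosome 8, 74873173 to 74893506, plus strand) was measured at 23.3, 5.38 and 5.88 CPM in SI-pos 1 to 3, against 52.3, 35.3 and 51.6 CPM in SI-neg 1 to 3. All SI-pos libraries were lower, and SI-pos 1 was the highest of them. The difference was -2.01 ± 1.11 (adjusted p = 0.206), and -2.01 ± 0.60 without GB-neg 1 (adjusted p = 0.0254, range 0.000533 to 0.42 over the alternatives). In the gallbladder there were 0, 1 and 3 reads in GB-pos 1 to 3, against 190, 3 and 1 reads in GB-neg 1 to 3. The gallbladder difference of -4.47 ± 1.53 (adjusted p = 0.0505) became -0.58 ± 1.21 without GB-neg 1 (adjusted p = 0.784, range 0.0181 to 0.791).

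The GATA genes divided by tissue, with Gata4 confined mainly to the small intestine and Gata5 and Gata6 present in every library. Gata4 (ENSMUSG00000021944, chromosome 14, 63198922 to 63271692, minus strand) was measured at 72.4, 55.6 and 55.2 CPM in SI-pos 1 to 3, against 127, 128 and 126 CPM in SI-neg 1 to 3. The groups did not overlap and the SI-neg libraries lay within 2 CPM of each other. The difference of -1.05 ± 1.04 did not pass with all libraries (adjusted p = 0.494) and did without GB-neg 1 (-1.06 ± 0.33, adjusted p = 0.0295, range 0.00134 to 0.648). The edgeR fit of the small intestine libraries alone gave -1.07 ± 0.17 (adjusted p = 0.00161). Gallbladder libraries gave 1, 6 and 3 Gata4 reads in GB-pos 1 to 3, against 442, 7 and 2 reads in GB-neg 1 to 3. The gallbladder test gave -4.38 ± 1.44 (adjusted p = 0.0473), which rested on GB-neg 1, since it was -0.42 ± 0.66 without that library (adjusted p = 0.705). The call was also lost on leaving out any 1 of the 3 GB-pos or the 6 small intestine libraries, with adjusted p-values from 0.0675 to 0.153, with no filter on low counts (0.116) and by limma-voom (0.281).

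Gata5 showed no difference between the sort gates that passed the test. Gata5 (ENSMUSG00000015627, chromosome 2, 180325133 to 180334699, minus strand) stood at 130, 162 and 146 CPM in GB-pos 1 to 3, against 194, 150 and 252 CPM in GB-neg 1 to 3. It stood at 125, 131 and 145 CPM in SI-pos 1 to 3, against 114, 113 and 80.4 CPM in SI-neg 1 to 3. The gallbladder groups overlapped and the small intestine groups did not, with differences of -0.44 ± 0.21 in the gallbladder (adjusted p = 0.139) and 0.39 ± 0.21 in the small intestine (adjusted p = 0.198). Gata5 shares 258 exonic bases with the antisense gene Gata5os, which the unstranded libraries cannot separate from it, so its values are uncertain to that extent.

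Gata6 was lower in IL-25+ cells of both tissues by nearly the same amount. Gata6 (ENSMUSG00000005836, chromosome 18, 11052064 to 11085635, plus strand) was measured at 58.9, 38.6 and 36.7 CPM in GB-pos 1 to 3, against 95.6, 70.9 and 139 CPM in GB-neg 1 to 3. It stood at 29.7, 22.9 and 23.5 CPM in SI-pos 1 to 3, against 64.7, 61 and 59.1 CPM in SI-neg 1 to 3. Neither pair of groups overlapped. Gata6 fell in both, with -1.19 ± 0.27 in the gallbladder (adjusted p = 0.00569) and -1.28 ± 0.27 in the small intestine (adjusted p = 0.00374), and both calls were made under all 22 alternatives. The interaction, which tests whether these differences differ from each other, was 0.09 ± 0.38 (adjusted p = 0.928). Gata6 shares 93 exonic bases with the antisense gene 1010001N08Rik, with the same limit as for Gata5.

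Within the summed per-kilobase counts of these GATA genes, Gata5 made up 81.4, 89.2 and 88.7% in GB-pos 1 to 3, against 78.4, 80.7 and 78.3% in GB-neg 1 to 3. Its share was 62.3, 69.2 and 71.4% in SI-pos 1 to 3, against 45, 44.9 and 37.3% in SI-neg 1 to 3. Gata4 made up 30.3, 24.7 and 22.8% in SI-pos 1 to 3, against 42.1, 42.8 and 48.9% in SI-neg 1 to 3. In the gallbladder the Gata4 share was at most 0.103% in GB-pos libraries, against 2.11% in GB-neg 1, 0.0934% in GB-neg 2 and 0.017% in GB-neg 3. The GATA transcripts of the gallbladder were therefore Gata5 and Gata6 in every library but GB-neg 1, where Gata4 was also found.

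**Figure D3:**
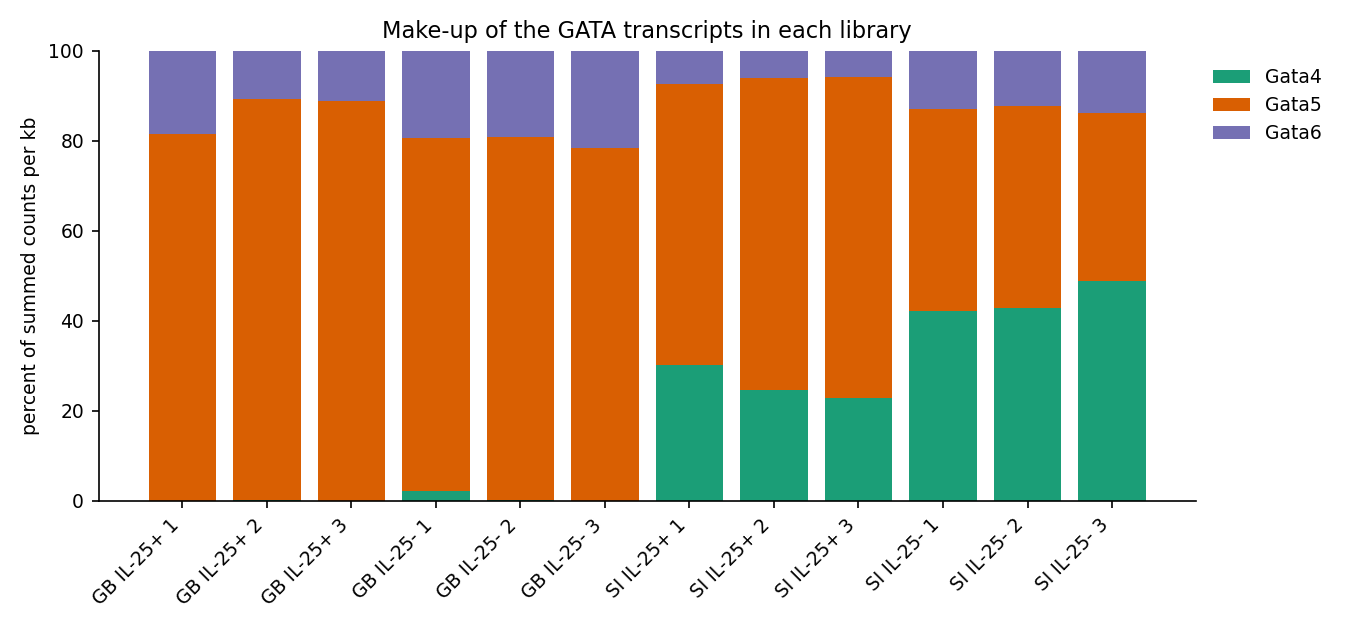
Share of Gata4, Gata5 and Gata6 in their summed counts per kilobase, with 1 stacked bar for each library and the y axis in percent. Gata4 takes 22.8 to 30.3% in SI-pos and 42.1 to 48.9% in SI-neg libraries, and is visible in the gallbladder only for GB-neg 1 at 2.11%.

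Hnf4a was the most abundant factor per kilobase in GB-pos, SI-pos and SI-neg cells and differed in opposite directions between the gates of the tissues. Hnf4a (ENSMUSG00000017950, chromosome 2, 163506808 to 163572910, plus strand) was measured at 474, 422 and 313 CPM in GB-pos 1 to 3, against 336, 194 and 151 CPM in GB-neg 1 to 3. It stood at 848, 792 and 837 CPM in SI-pos 1 to 3, against 1316, 1187 and 1291 CPM in SI-neg 1 to 3. GB-neg 1 lay above GB-pos 3, so the gallbladder groups overlapped, while all SI-pos libraries lay below all SI-neg ones. Hnf4a rose by 0.83 ± 0.25 in GB-pos over GB-neg (adjusted p = 0.028) and differed by -0.61 ± 0.25 between SI-pos and SI-neg (adjusted p = 0.0888). Without GB-neg 1 these values were 1.20 ± 0.21 (adjusted p = 0.0013, range 0.0013 to 0.101) and -0.62 ± 0.18 (adjusted p = 0.0252, range 0.00279 to 0.208). The gallbladder call was lost in 5 of 22 alternatives, 4 of which left out GB-pos 1, GB-pos 2, GB-neg 2 or GB-neg 3, with adjusted p-values of 0.101, 0.0693, 0.0905 and 0.0888 in that order, and 1 of which fitted the gallbladder groups alone (0.0519).

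Hnf4g, its paralog, was lower in IL-25+ cells of both tissues. Hnf4g (ENSMUSG00000017688, chromosome 3, 3508030 to 3658052, plus strand) was measured at 1.16, 7.09 and 7.48 CPM in GB-pos 1 to 3, against 41, 27.4 and 36.5 CPM in GB-neg 1 to 3. It stood at 113, 84.6 and 77.6 CPM in SI-pos 1 to 3, against 252, 331 and 339 CPM in SI-neg 1 to 3. No groups overlapped, and GB-pos 1 was the lowest library by a wide margin. Hnf4g fell in both, with -2.74 ± 0.50 in the gallbladder (adjusted p = 0.0017) and -1.74 ± 0.48 in the small intestine (adjusted p = 0.0183). The small intestine call was lost without SI-pos 2, SI-pos 3 or SI-neg 3, with adjusted p-values of 0.0694, 0.0769 and 0.0506, and also with no filter on low counts (adjusted p = 0.0586) and with a replicate block nested in tissue (adjusted p = 0.0562). The interaction of -0.99 ± 0.67 did not pass (adjusted p = 0.421).

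The ratio of Hnf4a to Hnf4g per kilobase was 222, 32.4 and 22.8 in GB-pos 1 to 3, against 4.46, 3.87 and 2.25 in GB-neg 1 to 3. It was 4.09, 5.1 and 5.88 in SI-pos 1 to 3, against 2.85, 1.95 and 2.07 in SI-neg 1 to 3. Each IL-25+ library had a higher ratio than every IL-25- library of its tissue, and in no library did Hnf4g exceed Hnf4a.

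Creb3l3 gave the largest fall of the 10 factors between the gallbladder gates. Creb3l3 (ENSMUSG00000035041, chromosome 10, 81084324 to 81098874, minus strand) was measured at 0.174, 0.223 and 0.242 CPM in GB-pos 1 to 3, against 11.7, 5.02 and 9.48 CPM in GB-neg 1 to 3. In the small intestine it stood at 16.3, 23.4 and 12.2 CPM in SI-pos 1 to 3, against 67.4, 95.8 and 77.7 CPM in SI-neg 1 to 3. The groups were apart in both tissues, and the SI-pos libraries lay above all gallbladder libraries. Creb3l3 fell in both, with -5.34 ± 0.44 in the gallbladder (adjusted p = 2.41e-06) and -2.21 ± 0.35 in the small intestine (adjusted p = 0.000509), and both calls were made under all 22 alternatives. GB-neg 2 and GB-neg 3 averaged 9.03% of the SI-neg mean of Creb3l3. The 23 enterocyte genes had medians of 0.258% and 0.127% in those libraries, with ranges of 0.0493 to 141% and 0 to 228%.

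Promoter windows of Hnf4a and Creb3l3 are shown because these were the factors whose interaction passed in the main fit. Each of them has 2 windows, and the window printed is that which held a match to the letters named below. RefSeq promoter entries (GRCm38.p6) matched 5 of the 10 factors, and each window below is the 250 bases before a RefSeq start, read 5′ to 3′ on the strand of the gene. Capitals mark the GATA letters AGATAA and the CRE core TGACG, and all other letters are lower case. The Hnf4a window lies before its upstream RefSeq start at chr2:163506607-163506856 (plus strand). Its last bases lie inside the annotated gene, which begins at 163506808. The Creb3l3 window at chr10:81092592-81092841 (minus strand) lies inside the annotated gene, before 1 of its 2 RefSeq starts.
Hnf4a, upstream start: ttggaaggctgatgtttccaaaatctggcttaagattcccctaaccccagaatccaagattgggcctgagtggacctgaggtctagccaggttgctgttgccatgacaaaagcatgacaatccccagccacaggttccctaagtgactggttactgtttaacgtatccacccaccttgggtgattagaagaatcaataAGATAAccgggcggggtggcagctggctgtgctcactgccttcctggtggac
Creb3l3, internal start: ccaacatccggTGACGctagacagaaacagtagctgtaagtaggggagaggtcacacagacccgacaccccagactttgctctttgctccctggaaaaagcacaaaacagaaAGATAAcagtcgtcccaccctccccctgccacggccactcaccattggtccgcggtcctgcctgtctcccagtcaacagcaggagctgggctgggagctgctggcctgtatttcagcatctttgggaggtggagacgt

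The windows were searched on both strands for the GATA letters AGATAA or TGATAA, the CDX letters TTTATNG, the HNF4 letters CAAAGTNCA and the CRE core TGACG, none of which contains another. The Hnf4a window held a GATA match at positions -52 to -47 from its start, and this match spans the annotated 5′ end of the gene. The Creb3l3 window held a GATA match at -138 to -133 and a CRE core at -239 to -235. The other 5 windows, those of Cdx2, Gata5 and Isx, of the downstream Hnf4a start and of the Creb3l3 start at the annotated 5′ end, held none of the searched letters. Of 32851 promoters of the same length, 16.6% held GATA matches, 17.8% CRE cores, 9.81% the CDX letters and 1.19% the HNF4 letters. A match describes letters only.

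Maf was a factor of the small intestine. Maf (ENSMUSG00000055435, chromosome 8, 115682942 to 115707794, minus strand) was measured at 43.7, 38.5 and 43.3 CPM in SI-pos 1 to 3, against 127, 158 and 133 CPM in SI-neg 1 to 3. It stood at 1.07, 1.67 and 1.27 CPM in GB-pos 1 to 3, against 7.65, 1.09 and 0.714 CPM in GB-neg 1 to 3. The small intestine groups did not overlap and the gallbladder groups did. The small intestine difference was -1.73 ± 0.65 (adjusted p = 0.0668), and -1.74 ± 0.24 without GB-neg 1 (adjusted p = 0.000183, range 1.44e-05 to 0.176). The gallbladder difference was -1.27 ± 0.67 (adjusted p = 0.187) and changed sign to 0.53 ± 0.30 without GB-neg 1 (adjusted p = 0.239, range 0.0403 to 0.667). Maf overlaps the antisense gene Gm15655 by 440 exonic bases, and that gene had 0 counts in all 12 libraries.

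Between the gates of the small intestine, 3 of the 10 factors were called and all 3 fell in IL-25+ cells (Gata6, Hnf4g and Creb3l3). Of all 16636 genes 27.2% were called, 14.5% higher and 12.8% lower. The median log2 fold change of the factors was -1.17, against -0.07 over all genes. All 10 factors had groups that did not overlap, 2 higher (Cdx1 and Gata5) and 8 lower in SI-pos, as did 49.3% of all genes, 24.9% higher and 24.4% lower. Without GB-neg 1 the calls numbered 8, with Cdx1 higher and Isx, Gata4, Gata6, Hnf4a, Hnf4g, Creb3l3 and Maf lower, where 26.3% of genes were called, and without GB-neg 3 they numbered 5. The fit of the small intestine libraries alone also gave 8, where 36.9% of genes were called. In that fit Cdx1 differed by 1.86 ± 0.22 (adjusted p = 0.000292), Isx by -2.03 ± 0.55 (0.0178) and Gata4 by -1.07 ± 0.17 (0.00161). Hnf4a differed there by -0.63 ± 0.15 (0.0101) and Maf by -1.75 ± 0.18 (0.000137).

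Enterocyte genes were also lower in SI-pos libraries. Of 24 tested, 3 were called and fell (19 fell and 1 rose without GB-neg 1), with a median of -1.69. SI-pos levels as a percentage of the SI-neg mean were 21.6% for Creb3l3, 24.8% for Isx, 29.8% for Hnf4g, 30% for Maf, 41.3% for Gata6, 48.2% for Gata4, 65.3% for Hnf4a and 79.9% for Cdx2, against a median of 30.9% for 23 enterocyte genes that ranged from 20.2 to 148%. Gata5 stood at 131% and Cdx1 at 369%. All 10 goblet, 7 of 14 enteroendocrine and 3 of 8 Paneth genes also fell in SI-pos (12 enteroendocrine and 6 Paneth genes without GB-neg 1), and the summed goblet level was 130 to 539 CPM in SI-pos, against 4451 to 59832 CPM in SI-neg libraries. What part the mix of cell types had in the factors' differences was not tested.

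Between the gates of the gallbladder, 6 of the 10 factors were called. Of all genes 26.8% were called, 12.4% higher and 14.4% lower. Cdx1 and Hnf4a rose and Gata4, Gata6, Hnf4g and Creb3l3 fell in GB-pos. The median of the factors was -1.90, against -0.15 over all genes. Groups did not overlap for 4 factors, 1 higher (Cdx1) and 3 lower (Gata6, Hnf4g and Creb3l3), where 41.3% of all genes had groups apart, 17.8% higher and 23.4% lower. Without GB-neg 1 the factors called were 5, Gata4 being lost, where 20.6% of genes were called, and the median was -0.47. GB-pos levels as a percentage of the GB-neg mean were 2.44% for Creb3l3, 15% for Hnf4g, 43.9% for Gata6, 73.5% for Gata5 and 178% for Hnf4a, against a median of 18% for 12 gallbladder genes that ranged from 7.52 to 1067%. Summed markers of some other cell types were also lower in GB-pos. Summed myeloid markers were 6.41 to 25.7 CPM in GB-pos and 53.7 to 232 CPM in GB-neg libraries. Of these 14 markers, 4 were at 0 in GB-pos (C1qa, C1qb, C1qc and Fcgr1) and 1 in GB-neg (Fcgr1). Itgam alone gave 211 CPM in GB-neg 2, and of 8 myeloid genes tested 1 was called, Csf1r, which fell. Hepatocytes also use Hnf4a and Creb3l3, and 14 hepatocyte markers summed to 29.3 to 52.8 CPM in GB-pos and 255 to 474 CPM in GB-neg libraries, with 8 of 14 at 0 in GB-pos and 2 in GB-neg (Serpina1a and Fgg). Most of these sums was Ttr, a thyroid hormone carrier, at 24.7 to 47 CPM in GB-pos and 153 to 468 CPM in GB-neg libraries, while albumin (Alb) stood at 0 to 1.1 CPM in GB-pos and 2.04 to 2.83 CPM in GB-neg libraries. Goblet markers summed to 69.9 to 126 CPM in GB-pos and 660 to 807 CPM in GB-neg libraries, with none of 10 at 0. Most of the GB-neg sum was Fcgbp, at 409 to 699 CPM. Of the 10 goblet genes 1 rose (Spdef) and 5 fell (1 and 3 without GB-neg 1). Paneth markers summed to 11.4 to 39.4 CPM in GB-pos and 105 to 288 CPM in GB-neg libraries, with 1 of 8 at 0 in GB-pos (Pla2g2a). Most of the GB-neg sum was Mmp7, at 98.7 to 287 CPM, and none of the 8 genes was called (1 fell without GB-neg 1). Other sums overlapped between the gates. Enteroendocrine sums were 16.7 to 26.5 CPM in GB-pos, against 462, 10.3 and 11 CPM in GB-neg 1 to 3. Stem and proliferation sums were 180 to 269 CPM in GB-pos and 136 to 286 CPM in GB-neg libraries, and of those 10 genes 2 rose and 2 fell. Sums of T cell and lymphocyte markers and of stroma and endothelium markers were at most 4.72 CPM in any gallbladder library. The part of these cell types in the factors' differences was not tested.

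**Figure D4:**
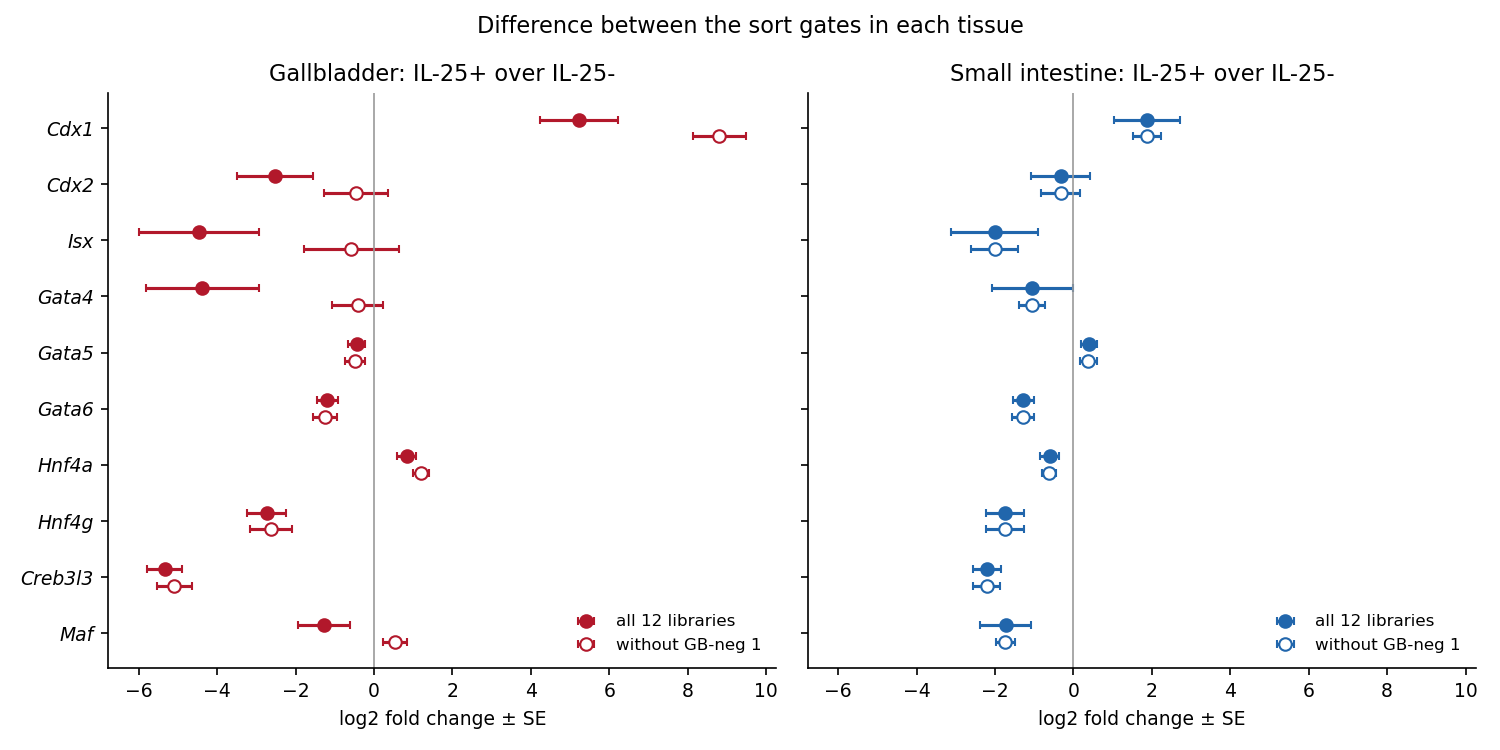
Log2 fold change of IL-25+ over IL-25- cells for each factor in the gallbladder and the small intestine, with SE bars. Filled points use all 12 libraries and open points leave out GB-neg 1. Cdx1 lies to the right of 0 in both tissues, Gata6, Hnf4g and Creb3l3 lie to the left in both, Hnf4a changes side, and the gallbladder points of Cdx1, Cdx2, Isx, Gata4 and Maf move when GB-neg 1 is left out.

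Whether a gate difference itself differed between tissues was tested by the interaction, the gallbladder difference minus the small intestine one. It passed for 2 of the 10 factors, where 9.23% of all genes passed, 3.63% with a positive and 5.6% with a negative sign. Hnf4a had an interaction of 1.44 ± 0.36 (adjusted p = 0.0226), with 0.83 in the gallbladder and -0.61 in the small intestine. Creb3l3 had an interaction of -3.12 ± 0.53 (adjusted p = 0.0026), its fall being larger in the gallbladder. The Hnf4a interaction missed the threshold without GB-pos 1, GB-neg 2, SI-pos 2, SI-pos 3 or SI-neg 1, with adjusted p-values from 0.0506 to 0.0624, and the Creb3l3 interaction missed it by limma-voom (-2.90, adjusted p = 0.128). With all 12 libraries the interaction was 3.35 ± 1.21 for Cdx1 (edgeR adjusted p = 0.116) and 0.46 ± 0.92 for Maf (0.824). That of Cdx1 passed with all libraries by DESeq2 (3.69, adjusted p = 0.0304) and by limma-voom (4.87, adjusted p = 0.0162). It also passed in edgeR with the replicate block nested in tissue (4.36, adjusted p = 0.0142). Without GB-neg 1 the interactions of Cdx1 (6.93 ± 0.75, adjusted p = 9.64e-05, range 9.64e-05 to 0.27) and Maf (2.27 ± 0.39, adjusted p = 0.00262, range 0.00262 to 1) also passed, which made 4, where 8.88% of genes passed.

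Between tissues, most of the factors were lower in the gallbladder. Among IL-25+ cells 8 of 10 were called, where 23.7% of all genes were, 10.5% higher and 13.1% lower. Of the factors 7 fell and Gata6 rose in GB-pos relative to SI-pos. Gata4 differed by -9.15 ± 1.58 (adjusted p = 0.00241), Cdx2 by -8.06 ± 1.09 (adjusted p = 0.000217), Isx by -8.04 ± 1.61 (adjusted p = 0.00413), Creb3l3 by -6.32 ± 0.45 (adjusted p = 2.41e-06) and Maf by -4.97 ± 0.76 (adjusted p = 0.000688). Differences for Cdx2, Isx and Gata4 compare with 11, 4 and 10 reads over all GB-pos libraries, and their exact size depends on the prior count of the fit. Hnf4g differed by -4.13 ± 0.54 (adjusted p = 0.000196) and Hnf4a by -1.04 ± 0.25 (adjusted p = 0.0101, 0.0508 without GB-pos 3). Gata6 was higher by 0.82 ± 0.27 (adjusted p = 0.0431), and this call was made in 12 of 21 alternatives and lost on leaving out GB-pos 1 or any 1 small intestine library. Cdx1 was lower in every GB-pos library than in every SI-pos one, at 18.7% of the SI-pos mean, with a difference of -2.42 ± 0.86 (adjusted p = 0.0647) that passed without GB-neg 1, GB-neg 2 or GB-neg 3 (adjusted p = 0.000378, 0.0347 and 0.0246). Gata5 differed by 0.13 ± 0.21 with overlapping groups (adjusted p = 0.716).

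Among IL-25- cells 9 of 10 factors were called, where 24.6% of all genes were, 13% higher and 11.7% lower. Of the factors 8 fell and Gata5 rose in GB-neg relative to SI-neg. Gata5 was higher by 0.96 ± 0.21 (adjusted p = 0.00573), a call made under all 21 alternatives. Gata6 was higher by 0.73 ± 0.27 with groups apart and missed the threshold (adjusted p = 0.0655). Hnf4a differed by -2.48 ± 0.27 (adjusted p = 3.23e-05), Hnf4g by -3.14 ± 0.51 (adjusted p = 0.00088) and Creb3l3 by -3.20 ± 0.37 (adjusted p = 5.69e-05). Those 3 transcripts were present in each GB-neg library, averaging 17.9% for Hnf4a, 11.4% for Hnf4g and 10.9% for Creb3l3 of the SI-neg mean.

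The other 5 differences among IL-25- cells depended in size on GB-neg 1. With it they were -5.77 for Cdx1, -5.86 for Cdx2, -5.57 for Isx, -5.82 for Gata4 and -5.44 for Maf. Without it they were -9.32, -7.89, -9.42, -9.75 and -7.21 in that order. In GB-neg 1 the 5 factors stood at 4.64, 4.08, 5.75, 4.89 and 5.49% of the SI-neg mean, close to the enterocyte median of 5.18% in that library. In GB-neg 2 and GB-neg 3 together the averages were 0.138% for Cdx1, 0.387% for Cdx2, 0.13% for Isx, 0.107% for Gata4 and 0.648% for Maf. The part of intestinal RNA in GB-neg 1 was not tested beyond the values without that library.

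**Figure D5:**
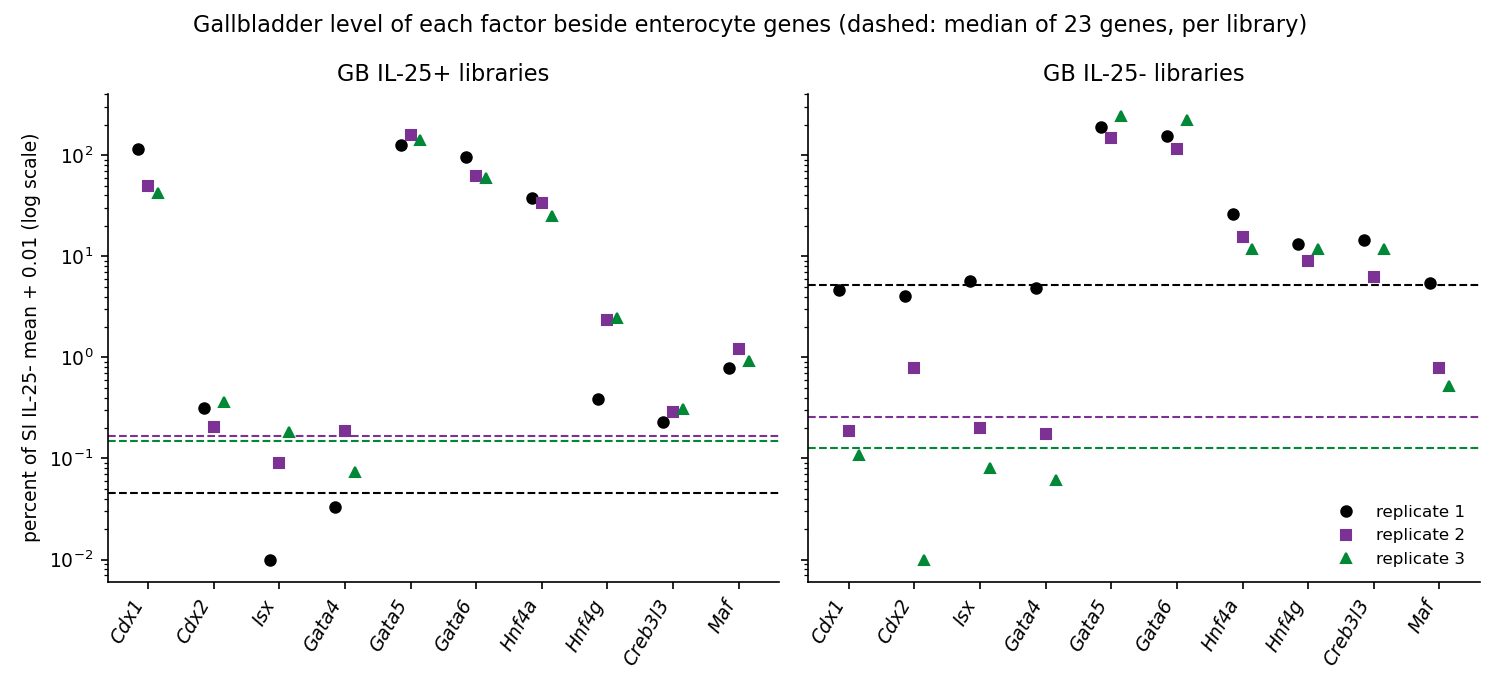
Level of each factor in each gallbladder library as a percentage of the SI-neg mean, plus 0.01 on a log scale. Symbols give replicate numbers and dashed lines the median of 23 enterocyte genes in the library of the same colour. In GB-neg 1 the points of Cdx1, Cdx2, Isx, Gata4 and Maf lie between 4.08 and 5.75%, beside the line at 5.18%, while Hnf4a, Hnf4g and Creb3l3 lie above it in all GB-neg libraries.

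Genes written down as CDX targets moved in both directions. Of 15 tested, 2 rose and 3 fell in SI-pos relative to SI-neg (5 and 9 without GB-neg 1), and 4 rose and 6 fell in GB-pos relative to GB-neg (4 and 2 without GB-neg 1). Their median log2 fold changes were -4.04 between the gallbladder gates and -1.61 between the small intestine gates. Over all genes these were -0.15 and -0.07, the values to set beside each list that follows. Gallbladder medians of this and the following lists include GB-neg 1, and medians without it were not computed. The gallbladder median of the 10 factors themselves was -1.90 with that library and -0.47 without it. Cdhr5, a protocadherin that links brush border microvilli, averaged 2922 ± 464 CPM in GB-pos and 77 ± 40.8 CPM in GB-neg, a rise of 5.24 ± 0.39 (adjusted p = 1.08e-06). In the small intestine Cdhr5 averaged 12464 ± 2113 CPM in SI-pos and 1654 ± 527 CPM in SI-neg, a rise of 2.91 ± 0.35 (adjusted p = 5.22e-05). Its partner Cdhr2 averaged 1708 ± 57.8 CPM in GB-pos and 10.9 ± 16 CPM in GB-neg, a rise of 7.28 ± 1.21 (adjusted p = 0.00168), and of 9.93 without GB-neg 1 (adjusted p = 7.26e-08). Gpa33, a surface antigen of intestinal epithelium, rose by 2.07 ± 0.21 in the gallbladder (adjusted p = 1.16e-05) and by 1.58 ± 0.20 in the small intestine (adjusted p = 9.82e-05). Vil1, the actin-bundling villin of microvilli, rose by 1.43 ± 0.23 in the gallbladder (adjusted p = 0.000513). Krt20, a keratin of differentiated villus cells, fell by 2.49 ± 0.64 in the small intestine (adjusted p = 0.0159), a call lost without SI-neg 2 or any 1 SI-pos library (adjusted p up to 0.0673). The relation of these genes to Cdx1 was not tested.

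Of 16 HNF4 targets, 2 rose and 5 fell in SI-pos relative to SI-neg, and the 8 called in GB-pos relative to GB-neg all fell (2 rose and 12 fell in SI-pos, and 1 rose and 6 fell in GB-pos, without GB-neg 1), with medians of -2.77 in the gallbladder and -1.55 in the small intestine. Npc1l1, the cholesterol importer, averaged 8.78 ± 6.49 CPM in GB-pos and 95.9 ± 27.4 CPM in GB-neg, a log2 fold change of -3.45 ± 0.45 (adjusted p = 0.000144). Fabp1, a fatty acid binding protein, averaged 6894 ± 1529 CPM in SI-pos and 761 ± 252 CPM in SI-neg, a rise of 3.18 ± 0.71 (adjusted p = 0.00807). Cpt1a, the gatekeeper of mitochondrial fatty acid oxidation, rose by 0.99 ± 0.17 in the small intestine (adjusted p = 0.000753), with an interaction of -2.09 ± 0.24 (adjusted p = 0.000163). The list thus held genes that moved with Hnf4g and others that moved against it.

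Of 10 GATA targets tested, 1 rose and 1 fell in SI-pos relative to SI-neg, and 1 rose and 5 fell in GB-pos relative to GB-neg (1 rose and 3 fell in SI-pos without GB-neg 1), with medians of -4.05 in the gallbladder and -1.76 in the small intestine. Adh1, an alcohol dehydrogenase, was the riser in both, with 1543 ± 203 CPM in GB-pos and 18.9 ± 13.9 CPM in GB-neg, and 3344 ± 259 CPM in SI-pos and 378 ± 123 CPM in SI-neg. Abcg5, a subunit of a sterol exporter, fell in both tissues, with -3.81 ± 0.58 in the gallbladder (adjusted p = 0.000357) and -2.14 ± 0.50 in the small intestine (adjusted p = 0.00649). Slc10a2, the bile acid importer that GATA4 is known to keep low in proximal mouse intestine, averaged 46.3 ± 3.87 CPM in GB-neg and 0.499 ± 0.625 CPM in SI-neg, a difference of 6.50 ± 1.08 (adjusted p = 0.000862). Among IL-25+ cells Slc10a2 averaged 2.74 ± 2.91 CPM in GB-pos and 0.0539 ± 0.062 CPM in SI-pos, a difference of 5.59 ± 1.20 (adjusted p = 0.00471).

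Of 7 ISX targets tested, 1 was called in SI-pos and 5 in GB-pos relative to IL-25- cells, and all of these fell (3 in each tissue without GB-neg 1). Their medians were -3.97 in the gallbladder and -1.58 in the small intestine. Aldh1a1, which makes retinoic acid, averaged 31.4 ± 5.27 CPM in GB-pos and 348 ± 46.5 CPM in GB-neg, a log2 fold change of -3.47 ± 0.45 (adjusted p = 0.00011). Bco1, the carotenoid oxygenase that ISX represses, averaged 1.3 ± 0.941 CPM in SI-pos and 9.18 ± 4.29 CPM in SI-neg and was not called (adjusted p = 0.0941). Of 7 CREB3L3 targets tested, 1 rose and 3 fell in SI-pos, and 5 were called in GB-pos and all fell, with medians of -2.93 in the gallbladder and -2.69 in the small intestine. Fads1, a fatty acid desaturase, fell in both tissues, with -2.36 ± 0.28 in the gallbladder (adjusted p = 4.93e-05) and -2.90 ± 0.29 in the small intestine (adjusted p = 1.06e-05). Cidec, a lipid droplet protein, averaged 0.0538 ± 0.0933 CPM in GB-pos and 3.99 ± 2.88 CPM in GB-neg, a log2 fold change of -6.02 ± 1.02 (adjusted p = 0.000761), and of -5.32 without GB-neg 1 (adjusted p = 0.00166).

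Relatives of the factors behaved differently from them in places. Of 16 relatives, 10 were abundant enough to test, and Cdx4, Mafa and Nrl had 0 counts in all libraries. Between the gallbladder gates 2 rose and 4 fell, and between those of the small intestine 3 were called and all fell, with medians of -1.13 and -0.48. Creb3l4, of the same family as Creb3l3, was measured at 22.1, 14.6 and 13.2 CPM in GB-pos 1 to 3, against 1.56, 1.12 and 0.325 CPM in GB-neg 1 to 3, a rise of 4.04 ± 0.78 (adjusted p = 0.00185) where Creb3l3 fell. In the small intestine Creb3l4 stood at 0.868, 2.65 and 0.649 CPM in SI-pos 1 to 3, against 7.33, 18.4 and 5.97 CPM in SI-neg 1 to 3, where it fell by 2.93 ± 0.74 (adjusted p = 0.0108, 0.0503 without SI-pos 3). Its interaction was 6.96 ± 1.07 (adjusted p = 0.00142).

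Partners of the factors included the GATA cofactor gene Zfpm1, which fell in both tissues, with -3.09 ± 0.38 in the gallbladder (adjusted p = 6.57e-05) and -1.74 ± 0.36 in the small intestine (adjusted p = 0.00332). Ppargc1a, a coactivator of HNF4A, averaged 1.74 ± 1.52 CPM in GB-pos and 40.2 ± 12.2 CPM in GB-neg, a log2 fold change of -4.55 ± 0.52 (adjusted p = 4.24e-05). Over 11 tested partners, 1 rose and 4 fell in GB-pos (2 rose and 3 fell without GB-neg 1, median -0.65 with it), and 1 rose and 6 fell in SI-pos (median -0.92). Of 17 other transcription factors of enterocytes, 3 rose and 5 fell in GB-pos (1 rose and 5 fell without GB-neg 1, median -0.70 with it), and 1 rose and 2 fell in SI-pos (median -0.27). Elf3, an epithelial ETS factor, rose by 1.00 ± 0.18 in the small intestine (adjusted p = 0.000969) and fell by 1.21 ± 0.18 in the gallbladder (adjusted p = 0.000232), with an interaction of -2.21 ± 0.25 (adjusted p = 0.000155).

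By the order of levels per kilobase, Hnf4a at 83.4 ± 17 led GB-pos, followed by Gata5 at 44.5 ± 4.81, Cdx1 at 13.1 ± 7.72 and Gata6 at 6.87 ± 1.89 CPM per kilobase. In GB-neg the leading factors were Gata5 at 60.6 ± 15.6, Hnf4a at 47 ± 20, Gata6 at 15.6 ± 5.27 and Hnf4g at 13.3 ± 2.64 CPM per kilobase, with Gata5 and Hnf4a within their spread of each other and Gata6 and Hnf4g likewise. In SI-pos Hnf4a led at 171 ± 6.09, followed by Cdx1 at 70.2 ± 15.6, Gata5 at 40.8 ± 3.14 and Hnf4g at 34.9 ± 7.1 CPM per kilobase. In SI-neg Hnf4a at 262 ± 14.1 was followed by Hnf4g at 117 ± 18.4, Gata4 at 32.5 ± 0.301 and Gata5 at 31.2 ± 5.78 CPM per kilobase, the last 2 within their spread. By rank among the 10, Cdx1 was number 3 in GB-pos, 9 in GB-neg, 2 in SI-pos and 7 in SI-neg.

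Across the 12 libraries, the genes whose log2 CPM closely followed a factor were found by Pearson's r, given as a description since all libraries share the tissue and gate structure. Cdx1 was followed by Hopx (r = 0.993), Calml4 (0.984) and Myrfl (0.977), Cdx2 by Gm15657 (0.991), Dnm1 (0.990) and Fmo4 (0.989), and Isx by Prlr (0.995), Otc (0.993) and Tubal3 (0.992). Gata4 was followed by Lct (0.996), Slc2a5 (0.995) and Dpep1 (0.995), Gata5 by Tgfa (0.970), Klf3 (0.938) and Jund (0.935), and Gata6 by Fry (0.963), Qser1 (0.958) and Fam114a1 (0.958). Hnf4a was followed by Psme2 (0.977), Dhrs1 (0.977) and Cyp4f14 (0.975), Hnf4g by Gk (0.990), Cdkn2b (0.990) and Abcg5 (0.987), Creb3l3 by B3gnt7 (0.991), Slc3a1 (0.991) and Glod5 (0.990), and Maf by Ifit1bl2 (0.993) and Enpp7 (0.991). Among the factors themselves r was highest between Gata4 and Maf (0.986) and Cdx2 and Gata4 (0.984), and lowest between Gata5 and Hnf4a (-0.828). Cdx1 and Gata6 had r = -0.784, and Cdx1 and Cdx2 had r = 0.656.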

How the data were processed

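The authors deposited a table of raw counts per Ensembl gene, made with STAR 2.7.2b alignment to GRCm38, per the submitters' processing notes, which also list DESeq2 1.26. The read counter, strand setting and annotation release are not given in the sources used here. Per the labels' protocols, the library kit was Nextera XT, a kit without strand marking, and reads were 50 bp single ends. Symbols came from GENCODE M21: 42462 of 43432 genes matched, and the other 970 held at most 0.132% of any library's counts. The table has 11 other columns that fit none of the labels, and they stayed out. Replicates were distinct: no pair had a chi-square per degree of freedom under 49.16.

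Counts were filtered with filterByExpr (minimum count 10), scaled by TMM and tested with edgeR 4.0.16 quasi-likelihood F tests (R 4.3.3) in 1 fit of 4 groups over 12 libraries. SE is the log2 fold change over the root of F. The fit was also run on simulated counts, in which only genes of higher counts were changed. No simulated library was made to resemble GB-neg 1. That run therefore cannot show how the fit treats low-count factors or results that rest on GB-neg 1. Alternatives were RLE scaling, DESeq2 1.42.0, limma-voom (limma 3.58.1), no filter or a stricter one (5 CPM in 3 libraries), a replicate block, the compared groups alone, and each library left out. Leaving out GB-neg 1 with SI-neg 3, or the mitochondrial genes, was added after seeing the data. All 10 factors are described in every comparison. Of other lists, the rule names the 3 genes with the lowest adjusted p and those called against the list's majority, of which the text gives examples. The factors and lists were chosen with earlier results of these data known. Python 3.11.15 and matplotlib 3.10.9 drew the figures.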

Additional observations from a re-analysis of the deposited data

Results flagged for a closer look

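The difference between the gates differed between gallbladder and small intestine for 2 factors by the test of the interaction. For Hnf4a the interaction was 1.44 ± 0.36 on the log2 scale (edgeR adjusted p = 0.0226), with means of 403 ± 81.9 CPM in GB-pos and 227 ± 96.6 CPM in GB-neg, and 826 ± 29.4 CPM in SI-pos and 1265 ± 68.1 CPM in SI-neg (SD, n = 3 each). For Creb3l3 the interaction was -3.12 ± 0.53 (edgeR adjusted p = 0.0026), with means of 0.213 ± 0.035 CPM in GB-pos and 8.74 ± 3.41 CPM in GB-neg, and 17.3 ± 5.64 CPM in SI-pos and 80.3 ± 14.4 CPM in SI-neg.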

How the results depend on the processing

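Of 1052 values of single factors recomputed under alternatives, 949 kept their direction and side of the threshold, 52 passed it anew, 42 lost it and 9 changed sign, and of 214 recomputed counts 199 stayed within 1.5 times. The number of factors called between the small intestine gates, 3 with all libraries, was 5 with RLE scaling, 8 in the fit of the compared groups alone, 8 by limma-voom, 5 without GB-neg 1 and SI-neg 3, and 2 to 8 on leaving out single libraries. For the interaction it was 2 with all libraries, 4 without GB-neg 1 and SI-neg 3, and 1 to 4 on leaving out single libraries. Leaving out single libraries gave 4 to 8 factors between the gallbladder gates, 7 to 9 between tissues in IL-25+ cells and 9 to 10 in IL-25- cells. Genes called between the small intestine gates numbered 4529, and 6837 by limma-voom, and interactions 1536, and 2644 by DESeq2, which gave no adjusted p for Isx, Gata4 and Maf. Leaving out single libraries gave 3040 to 4774 genes for the small intestine gates, 3525 to 4469 for the gallbladder gates, 1050 to 1566 for the interaction, and 2740 to 4157 in IL-25+ and 3042 to 4233 in IL-25- cells between tissues. Signs changed for the Maf gallbladder difference (0.53 without GB-neg 1 and SI-neg 3, and -1.74 to 0.53 on leaving out single libraries) and for interactions: Isx (1.35 without that pair, and -3.59 to 1.43), Gata4 (0.65, and -4.19 to 0.63), Gata6 (-0.17 to 0.37) and Maf (-0.0031 to 2.27, the lowest without GB-neg 3). The cause was not tested. The fit of the gallbladder groups alone left out Cdx2, Isx and Gata4 as too low. RLE scaling moved the median of all genes by -0.124 between the small intestine gates, 0.107 between tissues in IL-25+ cells and 0.164 for the interaction. Whether the replicate numbers pair the samples could not be settled with 3 libraries per group. Between the gallbladder gates, correlations were 0.094, 0.019 and 0.162 for the same number, against -0.179 to 0.096 for different numbers. Between the small intestine gates they were 0.026, -0.002 and -0.028, against -0.062 to 0.062. With the replicate block the factors called were 3 and 5 between the small intestine and gallbladder gates. They were 9 and 9 between tissues and 2 for the interaction. With the block nested in tissue they were 4, 5 and 3 for the small intestine gates, the gallbladder gates and the interaction, and between the small intestine gates Hnf4g was lost (adjusted p = 0.0562) while Cdx1 (0.0283) and Hnf4a (0.0367) were gained. Counts of Cdx2, Isx and Gata4 were 0 to 10 per gallbladder library other than GB-neg 1. Scaled ratios of pooled GB-pos counts to those of GB-neg 2 and GB-neg 3 were 0.722 for Cdx2, 0.656 for Isx and 0.729 for Gata4. Their 95% counting intervals were 0.278 to 1.9, 0.122 to 3.52 and 0.266 to 2.03 in that order. Differences inside these intervals were not detectable at this depth, and the intervals cover counting error only.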
